A study of Mus musculus with 4 samples.

Results

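Integrins are cell surface receptors made of 1 alpha and 1 beta chain. The transcripts of 10 integrin chains that T-cell progenitors are known to use were examined in Beko cells, a mouse leukemia pre-T cell line in which Notch signaling is constitutively active. The chains were taken by gene symbol from the 24391 genes of the count table and comprise 7 alpha chains (Itga4, Itga5, Itga6, Itga9, Itgal, Itgae and Itgav) and 3 beta chains (Itgb1, Itgb2 and Itgb7). All 10 symbols were present in the table. Rows were taken by symbol alone, but the list was drawn up with earlier results of these data known. RNA-Seq was available from 4 libraries. In 2 libraries, Beko cells had been kept for 48 h in DAPT, a γ-secretase inhibitor (GSI) that blocks release of the active intracellular part of Notch receptors. In the other 2 libraries, cells had received the same 48 h of GSI, after which the inhibitor was washed out and the cells were cultured for a further 24 h. Both groups therefore had seen the inhibitor, no untreated library was analysed here, and the removal of GSI cannot be told apart from the washing and the additional 24 h of culture. The dose is 10 mg/ml in the labels, while the methods of the study give the same figure in μg/ml. The labels do not say whether the libraries numbered 1 and 2 came from separate cultures, so p-values measure the spread between these libraries, which may be technical.

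An integrin chain reaches the cell surface only as part of a pair, and the alpha chain largely sets which ligand is bound. In T-cell progenitors, Itga4 with Itgb1 binds Vcam1 and fibronectin. Itga4 with Itgb7 binds the gut addressin Madcam1, and Itgae with Itgb7 binds E-cadherin. Itgal with Itgb2 forms LFA-1 (called LFA below), a receptor for Icam1. Itga6, Itga5 and Itga9 pair with Itgb1 in lymphocytes and bind laminins, fibronectin, and ligands such as tenascin and osteopontin, respectively, whereas Itgav can pair with Itgb1 and with several other beta chains and binds vitronectin and latent TGF-β.

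The libraries held between 13716199 and 36364200 counts on genes, and replicate 1 was the deeper one in both groups. The 10 chains together took 0.117% and 0.112% of the counts in the GSI libraries and 0.0933% and 0.0949% in the washout libraries. The chi-square per degree of freedom between replicates was 18.1 for GSI and 29.2 for washout, so that no library was a copy of another. Values are given as CPM, the reads on a gene per 1000000 reads that the library had on the genes tested, scaled with TMM normalization factors of 0.930 to 1.08. The 2 groups were tested against each other with edgeR's quasi-likelihood method over the 12266 genes with sufficient counts, and a gene was called deregulated at a Benjamini-Hochberg adjusted p-value under 0.05 together with a log2 fold change above 1 or below -1. Of the 15 T-cell marker genes, 15 were tested and their summed level was 6903 and 7430 CPM with GSI and 6587 and 6413 CPM upon washout, and both groups thus carried the transcripts of the labelled cell type. Of this sum, Rag1 alone had 1764 and 2368 CPM with GSI and 2766 and 2555 CPM upon washout. Because these are bulk libraries, fewer cells of a type and less RNA per cell cannot be told apart.

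Upon washout, 1 of the 9 chains tested was higher (Itga9) and 2 were lower (Itgb7 and Itga4). Of all genes tested, 7.74% were called higher and 11.7% lower. A further 2 chains, Itgav and Itgb2, passed the adjusted p-value with a lower level, while their fold change stayed within the limit. On the adjusted p-value alone, 1 chain was higher and 4 were lower, and the corresponding shares of all genes tested were 27.0% and 25.4%. The median log2 fold change of the 9 chains was -0.22, and that of all genes tested was -0.01. Itga5 was not tested with edgeR because its counts were too low for the expression filter (filterByExpr), so it has no fold change here. It had 1 count in replicate 1 of each group and none in replicate 2, under the floor of 3 counts per library.

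**Figure D1:**
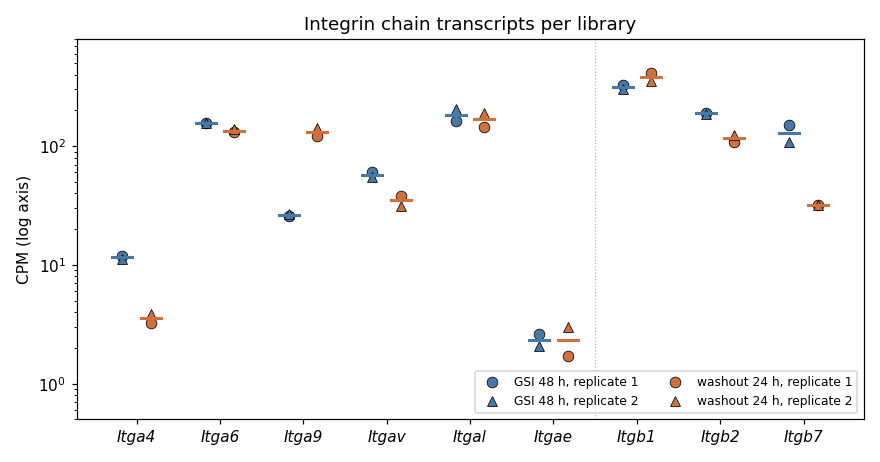
Level of 9 integrin chains in each library in CPM on a log axis, with GSI in blue, washout in orange, circles for replicate 1, triangles for replicate 2 and horizontal lines for the mean of each group. Alpha chains stand left of the dotted line and beta chains right of it. The libraries of the 2 groups overlap for Itgal and Itgae and are separated for all other chains shown, called or not. The share of all genes tested that separate in this way is not given here.

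Itga9 was the only one of the 9 chains tested that was called higher. It had 25.9 and 27.1 CPM in the GSI libraries and 121 and 142 CPM in the washout libraries. Both washout libraries thus lay well above both GSI libraries, and the gap exceeded the spread within either group. The level rose 4.97-fold, a log2 fold change of 2.31 (SE 0.12, n = 2 per group, adjusted p = 0.000281 by edgeR's quasi-likelihood test). The gene lies on chromosome 9 of mm9 from 118515808 to 118810121 on the plus strand, and 18 of its 27 annotated introns are longer than 3000 bases. The authors aligned reads with a maximum intron length of 3000, so reads across those junctions may be missing from the counts in both groups.

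The other alpha chain past both thresholds, Itga4, went the opposite way. It had 11.9 and 11.2 CPM with GSI and 3.26 and 3.87 CPM upon washout. The groups did not overlap, and the replicates of each group lay close together. The level was 3.29-fold lower (log2 fold change -1.72, SE 0.20, adjusted p = 0.00102, edgeR). Itga4 lies on chromosome 2 from 79095583 to 79173280 on the plus strand (mm9) and shares 1124 of its 13978 exon bases with Cerkl on the opposite strand. Cerkl itself had at most 3 counts in any library. The strand setting of the counting is not given in the sources used here.

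Itgb7, the beta chain of the Madcam1 and E-cadherin receptors, had the largest decrease among the chains. It had 151 and 108 CPM with GSI and 31.7 and 31.9 CPM upon washout. The GSI libraries differed from each other more than the washout libraries did, and both were above both washout libraries. The level was 4.09-fold lower (log2 fold change -2.03, SE 0.17, adjusted p = 0.000440, edgeR). Itgb7 lies on chromosome 15 from 102046426 to 102062366 on the minus strand (mm9), and no other annotated gene overlaps it.

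Promoter sequences of the 3 deregulated chains are shown because they are the members that moved past both thresholds. They are the 250 bases before the transcription start in RefSeq (GRCm38.p6), which had an entry for 6 of the 10 chains (Itga4, Itga5, Itga9, Itgav, Itgb1 and Itgb7) and not for Itga6, Itgal, Itgae and Itgb2. Capitals mark GGGCGG, the core bound by SP factors, and TGTGGT, the core bound by Runx factors, on either strand. The Itga4 window is chr2:79255176-79255425 on the plus strand, the Itgb7 window is chr15:102231936-102232185 on the minus strand, and the Itga9 window is chr9:118711442-118711691 on the plus strand.
Itga4: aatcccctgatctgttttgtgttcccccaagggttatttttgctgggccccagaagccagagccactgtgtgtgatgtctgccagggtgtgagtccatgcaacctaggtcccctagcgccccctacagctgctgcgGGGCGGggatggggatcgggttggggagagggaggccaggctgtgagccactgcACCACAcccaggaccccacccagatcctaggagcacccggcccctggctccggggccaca
Itgb7: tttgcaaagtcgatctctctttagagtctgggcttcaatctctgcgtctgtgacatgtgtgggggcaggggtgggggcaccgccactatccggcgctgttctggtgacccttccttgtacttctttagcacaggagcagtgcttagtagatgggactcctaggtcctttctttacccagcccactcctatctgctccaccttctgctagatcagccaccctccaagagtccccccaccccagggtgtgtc
Itga9: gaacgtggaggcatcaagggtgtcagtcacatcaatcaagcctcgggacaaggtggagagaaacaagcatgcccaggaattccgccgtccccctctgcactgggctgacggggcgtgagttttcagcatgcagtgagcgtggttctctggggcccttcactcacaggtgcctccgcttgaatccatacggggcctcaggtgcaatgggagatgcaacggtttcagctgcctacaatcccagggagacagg
The Itga4 and Itgb7 entries have their start at that of the gene in the mm9 annotation, whereas the start of the Itga9 entry lies, by an exact match of its sequence to mm9, 105002 bases inside the annotated gene, so that it represents an internal start. The canonical RBPJ motif TGGGAA, the variant TGAGAA, the E-box CACGTG and the ETS core CCGGAA were searched on both strands and had no match in any of the 6 windows. Among all 32851 RefSeq promoters, windows of the same length held TGGGAA in 21.6%, TGAGAA in 17.2%, CACGTG in 6.02% and CCGGAA in 12.03% of cases. GGGCGG occurred in 3 of the 6 windows (Itga4, Itga5 and Itgb1) and in 32.7% of all promoters, and TGTGGT occurred in the Itga4 window and in 14.0% of all promoters. The matches did not overlap each other. A match or its absence describes only the letters in the window.

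Itgav and Itgb2 were lower on the adjusted p-value alone. Itgav had 60.0 and 55.2 CPM with GSI and 38.2 and 31.6 CPM upon washout, with no overlap between the groups, and was 1.64-fold lower (log2 fold change -0.72, SE 0.13, adjusted p = 0.00450, edgeR). Itgb2, the beta chain of LFA and of the other leukocyte integrins, had 192 and 188 CPM with GSI and 109 and 124 CPM upon washout. Its groups did not overlap either, and the level was 1.63-fold lower (log2 fold change -0.71, SE 0.10, adjusted p = 0.00225, edgeR). In mm9, Itgav lies on chromosome 2 from 83564554 to 83647073 and Itgb2 on chromosome 10 from 76992997 to 77028453, both on the plus strand.

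For the remaining 4 chains tested, the adjusted p-value was above 0.05, which for Itgb1 and Itga6 depended on the fit. Itgb1, the common partner of Itga4, Itga5, Itga6 and Itga9, was the most abundant chain, with 324 and 300 CPM with GSI and 416 and 355 CPM upon washout. Its groups were separated, with washout above GSI, but the log2 fold change of 0.30 (SE 0.12) had an adjusted p of 0.0756 with edgeR. Itga6, the laminin-binding chain, had 156 and 158 CPM with GSI and 131 and 138 CPM upon washout. Its groups were also separated, with washout below GSI, and the log2 fold change was -0.22 (SE 0.09, adjusted p = 0.0845, edgeR). Over 13 alternative fits the adjusted p of Itgb1 ranged from 0.00512 to 0.501 and was under 0.05 in 4 of them, including the fit without washout replicate 2 (0.0226, edgeR). That of Itga6 ranged from 0.00922 to 0.345 and was under 0.05 in 3. No fit brought either chain past the limit on the fold change. In mm9, Itgb1 lies on chromosome 8 from 131209554 to 131257100 and Itga6 on chromosome 2 from 71583673 to 71696473, both on the plus strand.

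Itgal, the alpha chain of LFA, had 163 and 204 CPM with GSI and 145 and 192 CPM upon washout. Replicate 2 was the higher one in both groups, the groups overlapped, and the log2 fold change of -0.13 (SE 0.17) had an adjusted p of 0.569 with edgeR. Itgae, which marks intraepithelial T cells when paired with Itgb7, was the lowest chain tested, with 2.59 and 2.06 CPM with GSI and 1.70 and 2.98 CPM upon washout. The washout libraries enclosed both GSI libraries, and the log2 fold change was -0.06 (SE 0.36, adjusted p = 0.901, edgeR). Itgal lies on chromosome 7 from 134439774 to 134478651 and Itgae on chromosome 11 from 72904085 to 72960948 (mm9, plus strand). The Itgae gene contains Gsg2 on the opposite strand, which shares no annotated exon base with it. Gsg2 had 31.0 and 32.5 CPM with GSI and 61.3 and 58.7 CPM upon washout. For Itgal and Itgae the sign of the log2 fold change depended on single libraries. Without GSI replicate 2 or washout replicate 1 it was 0.056 and 0.070 for Itgal, and without GSI replicate 1 or washout replicate 1 it was 0.13 and 0.34 for Itgae.

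**Figure D2:**
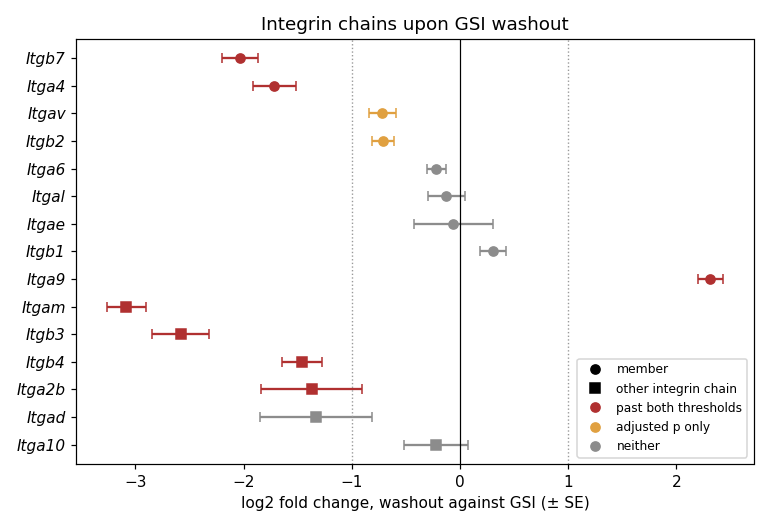
Log2 fold changes (washout relative to GSI, bars for the standard error) of the 9 chains tested (circles) and the 6 other integrin chains tested (squares), and dotted lines at -1 and 1. Red marks genes past both thresholds, amber those past the adjusted p-value alone and grey the rest. Itga9 stands alone on the right at 2.31, and Itgam lies farthest to the left at -3.08.

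To compare levels between chains, CPM was divided by the length of all annotated exons of the gene in kb. Introns longer than the 3000 bases allowed in alignment number 18 of 27 in Itga9, 3 of 31 in Itgal, 3 of 15 in Itgb1 and 1 of 14 in Itgb7. Levels, shares and ratios between chains may therefore be affected unequally, which was not tested. With GSI, the 3 beta chains led the order, with a mean CPM per kb of 76.5 ± 4.2 for Itgb1, 62.2 ± 0.76 for Itgb2 and 47.3 ± 11.0 for Itgb7 (SD, n = 2). Among the alpha chains, Itgal stood at 28.8 ± 4.6 CPM per kb, Itga6 at 17.4 ± 0.16, Itgav at 5.36 ± 0.32 and Itga9 at 3.44 ± 0.11 (SD, n = 2). Itga4 and Itgae lay below 1 CPM per kb in every library. No 2 neighbours in this order overlapped between libraries of the group. The order of Itgal and Itga6 depended on the length used. Divided by the longest protein-coding transcript, Itga6 stood at 36.3 ± 0.33 and Itgal at 35.2 ± 5.6 CPM per kb (SD, n = 2), and their libraries overlapped.

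Upon washout the order changed around Itga9 and Itgb7. Itgb1 led at 94.4 ± 10.6 CPM per kb, ahead of Itgb2 at 38.1 ± 3.5 and Itgal at 26.4 ± 5.2 (SD, n = 2). Itga9 followed at 17.1 ± 1.9 CPM per kb and thus lay above Itga6 at 14.9 ± 0.53, while Itgb7 stood at 11.6 ± 0.05 (SD, n = 2). Itga9 moved from rank 7 to rank 4 and Itgb7 from rank 3 to rank 6. The position of Itga9 above Itga6 depended on the length used. Divided by the longest protein-coding transcript, an alternative chosen after seeing the lengths, Itga6 stood at 31.3 ± 1.1 CPM per kb and Itga9 at 18.7 ± 2.1 upon washout (SD, n = 2), and Itgb2, Itgal and Itga6 then overlapped with their neighbours.

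Among the 3 beta chains, Itgb1 made up 40.3% and 42.1% of their summed CPM per kb with GSI and 68.3% and 62.5% upon washout. Itgb7 held 27.9% and 22.6% with GSI and 7.76% and 8.37% upon washout, and Itgb2 had 31.8% and 35.3% with GSI and 23.9% and 29.2% upon washout. The shares of each of the 3 chains did not overlap between the groups. As parts of the same sum the 3 shares are not independent, and how often shares of other genes separate was not examined. These shares describe the balance of transcripts and cannot show that any single chain stayed constant. Their sum was 197 and 175 CPM per kb with GSI and 149 and 139 CPM per kb upon washout.

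Among the 5 alpha chains that pair with Itgb1, Itga6 held 63.7% and 64.9% of the summed CPM per kb with GSI and 42.7% and 41.4% upon washout. Itga9 went from 12.4% and 13.1% to 46.2% and 49.9%, and Itgav from 20.6% and 19.1% to 10.4% and 7.96%. These shares depended on the length used. Divided by the longest protein-coding transcript, Itga9 went from 7.44% and 7.81% to 32.3% and 35.4%. Itga6 then held 57.0% and 56.1% upon washout and stayed above Itga9. Itga4 held 3.15% and 2.99% with GSI and 0.684% and 0.749% upon washout. The summed level of these 5 chains was 27.1 and 26.9 CPM per kb with GSI and 34.1 and 37.0 CPM per kb upon washout.

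**Figure D3:**
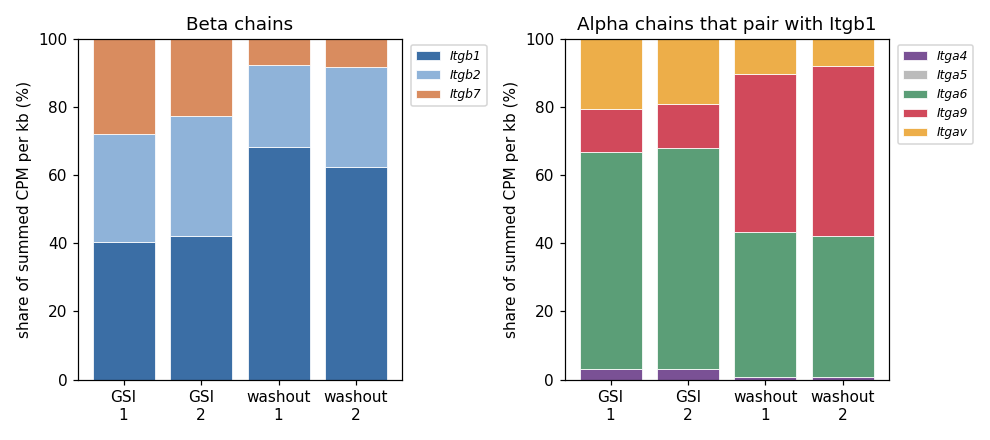
Share of each chain in the summed CPM per kb (%) of the 3 beta chains (left) and of the 5 alpha chains that pair with Itgb1 (right), with 1 bar for each library. The Itgb7 share is below 10% in both washout bars, and the Itga9 share is above 40% in both. Lengths are those of all annotated exons. With the longest protein-coding transcript, the Itga9 share upon washout is 32.3% and 35.4%.

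Ratios of alpha to beta chain within a library do not depend on the scaling between libraries, and 7 known pairs could be compared. Itga9 over Itgb1 was 0.0423 and 0.0479 with GSI and 0.155 and 0.212 upon washout, or 4.03-fold higher on average. Itga4 over Itgb1 was 0.0107 and 0.0109 with GSI and 0.00229 and 0.00319 upon washout, or 4.01-fold lower on average. For Itga4 over Itgb7, whose members both decreased, the ratio was 0.0155 and 0.0203 with GSI and 0.0202 and 0.0238 upon washout, and the groups overlapped. Itgae over Itgb7 was 0.0103 and 0.0113 with GSI and 0.0322 and 0.0558 upon washout, and Itgal over Itgb2 was 0.407 and 0.519 with GSI and 0.638 and 0.741 upon washout. Both ratios were thus higher in the washout libraries, and in both pairs it was the beta chain that had the larger log2 fold change. Itga6 over Itgb1 was 0.217 and 0.238 with GSI and 0.143 and 0.176 upon washout, and Itgav over Itgb1 was 0.0703 and 0.0699 with GSI and 0.0349 and 0.0339 upon washout. The groups did not overlap for 6 of the 7 pairs. Several pairs share a chain and are not independent, and how often ratios of other gene pairs separate was not examined. In an exact two-sided permutation test these 6 had p = 0.33, the smallest value that 2 against 2 libraries can give (adjusted p = 0.389 over the 7 pairs), and Itga4 over Itgb7 had p = 0.67, so this design cannot reach 0.05 for a ratio.

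The patterns nearest to those of Itga9 and Itgb7 were searched over the 4 libraries and the other 12265 genes tested, with each gene centred on its own mean log2 CPM. The nearest to Itga9 were Nefh, a neurofilament heavy chain (distance 0.10 on the log2 scale), Heyl, a repressor of the Hey family (0.11), and Ptcra, the alpha chain of the pre-T-cell receptor (0.13). Ptcra, for example, had 47.1 and 54.4 CPM with GSI and 249 and 276 CPM upon washout. The nearest to Itgb7 were Fxyd5, a regulator of the sodium pump (0.13), Slc37a3, a solute carrier (0.14), and H2-DMa, a chain of the MHC class II peptide loader (0.14). Fxyd5 had 24.5 and 16.2 CPM with GSI and 5.32 and 4.99 CPM upon washout. With 4 libraries, many genes with a similar fold change lie close by this measure, and it is a description of likeness only.

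Of the 17 integrin chains outside the chosen 10, 6 were tested, of which 4 were lower and 0 were higher (also 0 by DESeq2, on the adjusted p-value alone and at an unadjusted p under 0.05 with edgeR). Past both thresholds, 7.74% of all genes tested were higher and 11.7% lower. Itgam, the alpha chain of a leukocyte complement receptor, had 48.7 and 37.9 CPM with GSI and 5.38 and 4.76 CPM upon washout (log2 fold change -3.08, SE 0.18). Itgb3, a partner of Itgav, had 25.1 and 16.0 CPM with GSI and 3.70 and 3.13 CPM upon washout (log2 fold change -2.58, SE 0.27). Itgb4, the partner of Itga6 in epithelia, had 39.0 and 46.9 CPM with GSI and 13.2 and 18.4 CPM upon washout (log2 fold change -1.46, SE 0.19). Unlike Itgam and Itgb3, Itgb4 lost its call with glmTreat and with offsets for GC content and exon length. None of these 3 chains overlapped between the groups, which the rule for naming genes required. The fourth, Itga2b, had 49 and 12 counts with GSI and 18 and 5 counts upon washout and lost its call without GSI replicate 1, without washout replicate 1 or without washout replicate 2, and also with DESeq2, with glmTreat and with offsets for GC content and exon length. It was not tested where at least 10 counts were required in every library.

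Itgam is also a marker of myeloid cells, and Itgb3 and Itga2b are known from platelets. The 7 myeloid markers in the table had a summed level of 0.563 and 0.548 CPM with GSI and 0.147 and 0.298 CPM upon washout, with Lyz2 and Elane at 0 in every library. Of the 7 markers of erythroid cells and megakaryocytes, 6 were at 0 in every library, including Pf4, Ppbp and Gp9, and the summed level was 1.41 and 1.30 CPM with GSI and 0.646 and 0.521 CPM upon washout. The 6 B-cell markers summed to less than 1 CPM in every library, with Pax5, Ebf1 and Ms4a1 at 0. Of the 7 mast cell markers, 5 were at 0 in every library, and the other two, Cpa3 and Kit, summed to 274 and 167 CPM with GSI and 45.7 and 30.5 CPM upon washout. The 8 markers of stromal, endothelial and epithelial cells, of which 3 were at 0, summed to 223 and 176 CPM with GSI and 67.5 and 65.2 CPM upon washout, nearly all of it Pecam1. Cpa3, Kit and Pecam1 thus moved in the direction of Itgb7 and Itga4, and their part in these decreases was not tested. Within the T-cell list of 15 genes, 1 gene was higher (Ptcra) and 3 were lower (Gata3, Cd8b1 and Cd4). On the adjusted p-value alone, 3 were higher and 7 lower. The shares of all genes tested were 7.74% and 11.7% past both thresholds, and 27.0% and 25.4% on the adjusted p-value alone.

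Proteins that switch integrins on or off from inside the cell act through Rap1, talin and kindlin. Of 23 such genes, 20 were tested, 0 were higher and 4 were lower past both thresholds (with edgeR 1 higher and 11 lower on the adjusted p-value alone and 2 higher at an unadjusted p under 0.05, with DESeq2 0 higher). Over all genes tested, 7.74% were higher and 11.7% lower past both thresholds, and 27.0% and 25.4% on the adjusted p-value alone. Rasgrp1, an exchange factor for Ras, had 160 and 137 CPM with GSI and 30.0 and 23.1 CPM upon washout (log2 fold change -2.47, SE 0.15). Rapgef3, the cAMP-activated exchange factor for Rap1, had 392 and 386 CPM with GSI and 78.6 and 81.9 CPM upon washout (log2 fold change -2.28, SE 0.10). Rap1gap, which switches Rap1 off, was lower as well, with 10.4 and 6.03 CPM with GSI and 2.97 and 1.49 CPM upon washout (log2 fold change -1.82, SE 0.40). Rap1gap lost its call without GSI replicate 1 and with glmTreat. The fourth was Fyb, an adaptor that links the T-cell receptor to integrins. The talin gene Tln1 and the kindlin gene Fermt3, which bind beta chain tails, were lower on the adjusted p-value alone, with log2 fold changes of -0.37 and -0.61.

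Of 27 genes of the adhesion complex inside the cell, 24 were tested, 0 were higher and 2 were lower (with edgeR 0 higher and 9 lower on the adjusted p-value alone and 1 higher at an unadjusted p under 0.05, with DESeq2 0 higher). The shares of all genes tested were 7.74% higher and 11.7% lower, and 27.0% and 25.4% on the adjusted p-value alone. Zyx, the adhesion protein zyxin, had 20.3 and 13.8 CPM with GSI and 4.47 and 3.65 CPM upon washout (log2 fold change -2.06, SE 0.25). The other was Ptk2b, a kinase related to Ptk2, which had 149 and 19 counts with GSI and 6 and 1 counts upon washout. The median log2 fold change of the 24 genes was -0.12.

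Of 24 ligand genes, 9 were tested, 1 was higher and 4 were lower, while Vcam1, Madcam1 and Tnc were at 0 in every library. Among all genes tested, the corresponding shares were 7.74% higher and 11.7% lower. On the adjusted p-value alone, 2 ligand genes were higher and 4 lower with edgeR, and the shares of all genes tested were 27.0% and 25.4%. Icam1, a ligand of LFA, had 19.1 and 18.6 CPM with GSI and 5.46 and 6.77 CPM upon washout (log2 fold change -1.64, SE 0.17). Lamb2, a laminin chain, had a log2 fold change of -1.26 (SE 0.21), and Tgfb1, whose latent form Itgav binds, of -1.18 (SE 0.10). The fourth was Lama5, another laminin chain, with a log2 fold change of -1.05. With offsets for GC content and exon length, only Icam1 was still called lower. Cdh1, E-cadherin and the ligand of Itgae with Itgb7, was the gene called higher, but its replicates differed widely, with 0.469 and 2.47 CPM with GSI and 4.50 and 20.6 CPM upon washout (log2 fold change 3.26, SE 0.96, adjusted p = 0.0296, edgeR). Its call was lost without GSI replicate 1, with DESeq2 and with glmTreat. Icam2, from the same list as Icam1, went the other way, with 9.88 and 11.2 CPM with GSI and 13.8 and 15.3 CPM upon washout. It was higher on the adjusted p-value alone (log2 fold change 0.47, SE 0.16, adjusted p = 0.0465, edgeR).

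Of 14 tetraspanins and other surface partners of integrins, 11 were tested, 0 were higher and 4 were lower (with edgeR 3 higher and 6 lower on the adjusted p-value alone and 3 higher at an unadjusted p under 0.05, with DESeq2 0 higher). For all genes tested, 7.74% were higher and 11.7% lower, and 27.0% and 25.4% on the adjusted p-value alone. Cd53 had 7.78 and 5.07 CPM with GSI and 0.499 and 1.12 CPM upon washout (log2 fold change -3.16, SE 0.44), Cd37 fell from 89.1 and 79.0 to 22.1 and 20.5 CPM (log2 fold change -1.98, SE 0.11), and Cd9 had a log2 fold change of -1.55 (SE 0.30). The fourth was Tspan32. Slc3a2, the heavy chain of CD98 that binds beta chain tails, was higher on the adjusted p-value alone, with a log2 fold change of 0.80.

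**Figure D4:**
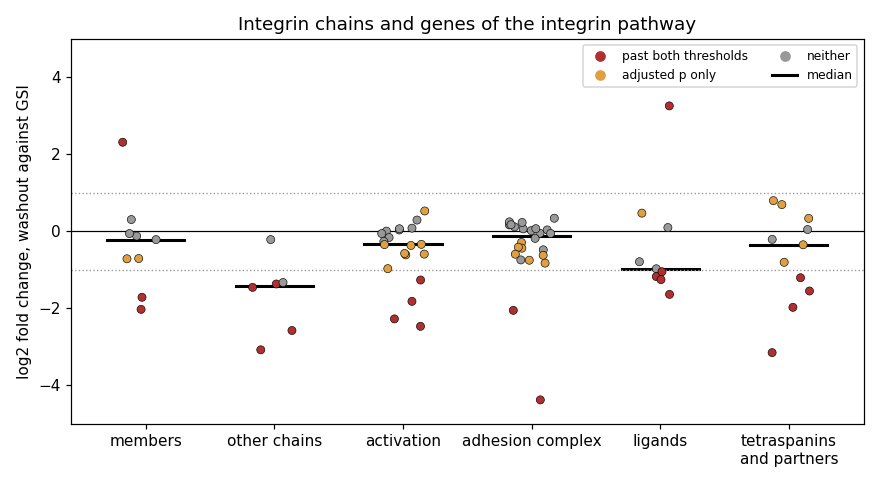
Log2 fold change of washout against GSI for each tested gene of the 10 chosen chains and of 5 pathway lists, with 1 point per gene, thick lines for medians and dotted lines at -1 and 1. Red points passed both thresholds, amber the adjusted p-value alone. Apart from Itga9 and Cdh1, every gene past both thresholds lies below 0. Amber points above 0 lie among the activation genes, ligands and tetraspanins. Of all genes tested, 7.74% were higher and 11.7% lower past both thresholds.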

How the data were processed

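RNA-Seq of total RNA from Beko cells was analysed in 2 GSI and 2 washout libraries, prepared with a stranded, ribosome-depleted kit. After trimming by trimGalore, the authors used HISAT2 2.2.1 on mm9 (1 alignment per read, introns up to 3000 bases) and deposited raw counts per gene from summarizeOverlaps with the iGenomes annotation, without normalization or filtering. The submitters' processing notes also list DESeq2 1.24.0. Groups and replicate numbers came from the labels.

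The counts were tested with edgeR 4.0.16 in R 4.3.3 (filterByExpr, TMM, quasi-likelihood test, no covariate) over all 12266 genes that passed the filter, with Benjamini-Hochberg adjustment. The thresholds were those of the study. Standard errors were derived from the F statistic (log2 fold change over √F). The script was tested on simulated data. Levels per kb used the exons of GENCODE vM1 on mm9, which matched 20641 of 24391 symbols. Limits from counts cover counting error only.

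The chains and gene lists were chosen with earlier results of these data known. Named genes were all 10 chains, up to 3 rises and 3 falls per list past both thresholds whose groups did not overlap and whose mean log2 CPM reached 1, and the 3 nearest patterns. Fyb, Ptk2b, Lama5, Tspan32, Itga2b, Tln1, Fermt3, Slc3a2, Icam2 and the markers were named in addition after their values were seen. Cd98 and Emr1 matched no symbol in the table. Alternatives were DESeq2 1.42.0, other scalings and filters, thinned counts, offsets for GC content and length over the 10962 tested genes with these features (89.4%), a replicate block, glmTreat, and leaving out each library.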

Additional observations from a re-analysis of the deposited data

How the results depend on the processing

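Across 13 alternative fits, Itga9 (log2 fold change 2.11 to 2.61), Itgb7 (-2.23 to -1.73) and Itga4 (-1.92 to -1.50) passed both thresholds each time, and Itgav and Itgb2 passed the adjusted p-value but never the fold change. The counts of 1 higher and 2 lower chains held under every alternative except the adjusted p-value alone, which gave 4 lower. The 2 groups share the numbers 1 and 2, but no label says what a number stands for, and with only 2 pairs this does not establish pairing. Same-numbered libraries deviated together (r = 0.50 across genes), in both groups the deeper library being number 1. With the replicate number as a block, 1 chain was higher and 2 were lower, and the median was -0.22, but the adjusted p of Itgb1 went from 0.0756 to 0.00512 and that of Itga6 from 0.0845 to 0.0240 (edgeR), or to 0.00975 and 0.0170 with thinned counts and the block. Itgb1 also came under 0.05 without washout replicate 2 (0.0226) and with all genes of at least 1 count (0.0213), and Itga6 with total count alone (0.00922). Leaving out 1 library at a time gave medians of -0.45 (without washout replicate 2) to -0.18, log2 fold changes of -0.32 to 0.070 for Itgal and of -0.45 to 0.34 for Itgae. In these fits, the lone library of a group is assumed to vary like the others. With GC and length offsets, Itgal and Itgae had 0.14 and 0.018. The causes were not tested.

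Scaling by total count alone shifted the median of all genes from -0.01 to -0.21 and the share of higher genes among those called from 39.8% to 23.0%, and no chain changed sign. Over all genes, 950 were higher and 1437 lower. Total count gave 586 higher, glmTreat 308 and 501, and the adjusted p-value alone 3315 and 3120. For the other chains, 4 lower became 2 with glmTreat and with the offsets. For the ligands, 4 lower became 1 with both, and 1 higher became 0 with glmTreat and DESeq2 and without GSI replicate 1, and 2 on the adjusted p-value alone. Activation genes and tetraspanins went from 4 lower to 2 with glmTreat, and adhesion genes from 2 lower to 1 with at least 10 counts in every library and to 9 on the adjusted p-value alone. Depth limits the genes that had under 100 counts in at least 2 libraries, among them Itgae, Itga5, Itga2b, Ptk2b, Cd53, Rap1gap and Cdh1.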
